A study of Homo sapiens with 6 samples.

Results

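The glycolysis and hypoxia target genes are 35 genes chosen by their known function, 15 enzymes of the glycolytic pathway and 20 other genes that cells raise when oxygen is short, out of 61015 genes with a transcript in the count table. All 35 had a row, 33 passed the filter on low counts and were tested, and ANGPTL4 and MIF did not pass it. The data are long non-coding RNA sequencing of paclitaxel (PTX)-resistant MDA-MB-231 (a triple-negative human breast cancer line), in which mRNAs were counted as well. Cells were sorted by FACS with ALDEFLUOR, a fluorescent substrate of aldehyde dehydrogenase (ALDH), into ALDH+ breast cancer stem cells (BCSC, 3 libraries) and ALDH- cells (non-BCSC, 3 libraries). Both groups carry the PTX resistance, no parental line is among these libraries, and the oxygen level of the cultures is not given in the sources used here. The label for cell type was the same for all 6 libraries, so the groups come from the titles. Nothing says that the 3 libraries of a group came from separate cultures, so p-values measure the spread between these libraries only.

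Glycolysis splits glucose into pyruvate and gives ATP without oxygen. When oxygen falls, the alpha subunit of the hypoxia-inducible factor (HIF) escapes degradation, pairs with ARNT and binds a short DNA motif near its targets, which include most glycolytic enzymes, glucose transporters, and genes for collagen processing, mitophagy, pH balance and vessel growth. In triple-negative breast cancer this program is known for its part in the survival of stem-like cells, and the study is about HIF1α signalling in chemoresistant BCSC. The comparison asks whether these genes differ in RNA level between BCSC and non-BCSC.

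The genes did not move as 1 block. Of the 15 glycolytic enzymes 4 rose in BCSC and 1 fell, whereas of the 20 other targets 1 rose and 8 fell, where rose and fell mean a Benjamini-Hochberg adjusted p under 0.05 in edgeR over all 20442 genes tested. Over all genes tested 29.9% passed, 15.3% higher and 14.6% lower. The 4 of 15 glycolytic enzymes that rose and the 8 of 18 other targets tested that fell are read against those shares. Those shares include sparse genes, while 13 of the 15 enzymes and 14 of the 18 other targets averaged at least 500 counts. Of the 5661 genes at that level 1699 were higher and 676 lower. Rises were thus no more frequent among the 15 enzymes than among those genes. A gene that did not pass is not shown to be equal in the groups. Without BCSC replicate 1 the rises among the glycolytic enzymes were 1, and without BCSC replicate 2, non-BCSC replicate 2 or non-BCSC replicate 3 they were 2. Without non-BCSC replicate 1 or 2 the falls among the other targets were 5. The largest falls were in LOX, the enzyme that cross-links collagen, in BNIP3L and NDRG1, and in CA12, each between 2.78-fold and 3.76-fold lower in BCSC. The 1 rise past 2-fold was in SLC2A1, the main glucose transporter, at 2.66-fold.

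Because HIF binds near its targets, the 250 bases before the transcription start were taken from RefSeq (GRCh38) for 31 of the 35 genes. BNIP3L, NDRG1, SLC2A3 and VEGFA are the other 4. The ACGTG form of the core of the hypoxia response element was searched on both strands (as ACGTG and CACGT, which overlap in CACGTG), and its matches are printed in capitals. Other forms of the core were not searched, so a window without a match may still hold one. Shown are 3 members that fell and 2 that rose, for LOX chr5:122078260-122078509 (minus strand), for P4HA1 chr10:73096867-73097116 (minus strand), for PGK1 chrX:78103998-78104247 (plus strand), for ENO2 chr12:6914330-6914579 (plus strand) and for SLC2A1 chr1:42958869-42959118 (minus strand), each 5′ to 3′ on the gene's own strand and ending at the base before the start.
LOX: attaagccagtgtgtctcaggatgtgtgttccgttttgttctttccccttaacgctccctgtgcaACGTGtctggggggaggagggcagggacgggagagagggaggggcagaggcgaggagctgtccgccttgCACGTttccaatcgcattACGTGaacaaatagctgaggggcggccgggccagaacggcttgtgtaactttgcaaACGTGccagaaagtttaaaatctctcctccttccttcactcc
P4HA1: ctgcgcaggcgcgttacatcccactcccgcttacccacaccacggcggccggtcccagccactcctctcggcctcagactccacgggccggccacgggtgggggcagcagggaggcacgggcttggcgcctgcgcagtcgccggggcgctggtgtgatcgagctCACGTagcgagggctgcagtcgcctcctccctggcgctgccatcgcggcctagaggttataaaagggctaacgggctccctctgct
PGK1: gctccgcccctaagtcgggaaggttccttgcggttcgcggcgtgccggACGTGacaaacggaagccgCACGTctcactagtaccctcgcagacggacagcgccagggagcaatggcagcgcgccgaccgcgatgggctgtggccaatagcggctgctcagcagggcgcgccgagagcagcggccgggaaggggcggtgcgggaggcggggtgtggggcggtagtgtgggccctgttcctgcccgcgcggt
ENO2: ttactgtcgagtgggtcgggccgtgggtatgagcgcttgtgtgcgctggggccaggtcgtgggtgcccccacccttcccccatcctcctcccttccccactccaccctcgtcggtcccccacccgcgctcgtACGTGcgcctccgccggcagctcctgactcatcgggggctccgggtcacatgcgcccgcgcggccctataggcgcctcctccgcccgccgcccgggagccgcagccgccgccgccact
SLC2A1: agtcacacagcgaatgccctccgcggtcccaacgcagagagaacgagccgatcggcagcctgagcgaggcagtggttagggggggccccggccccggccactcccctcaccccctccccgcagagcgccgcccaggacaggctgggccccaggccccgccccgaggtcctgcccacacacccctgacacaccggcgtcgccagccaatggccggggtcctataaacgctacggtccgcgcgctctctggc
The LOX window held 4 matches, that of PGK1 2, and those of P4HA1 and ENO2 1 each, while these letters are not in the SLC2A1 window. For each gene the start that lies first in its most counted transcript was taken (or the first listed where none does). By that choice 16 of the 31 windows held a match, against 18.5% of the 35116 windows of all starts. At any listed start, 19 of the 31 members held a match, against 21.7% of 27305 genes. Among members that passed the test, the match was present in 2 of the 5 that rose (ALDOA and ENO2) and in 5 of the 6 with a window that fell (LOX, P4HA1, PGK1, ERO1A and INSIG2), and CA12 had none. Of the members that did not pass or were not tested, 9 of 20 held a match. TPI1, which rose, held a match only before its other listed start. These numbers are small, and a link of match and direction was not tested. A match is a description of the letters in the window and shows no binding.

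Library totals ran from 15925943 to 21215352 counts in BCSC and from 9898588 to 12263667 in non-BCSC, so BCSC was the deeper group. A count of 0 allows up to 3 counts, or 0.141 to 0.303 per 1000000 of the library total. CPM are counts per 1000000 of the TMM library size. The MDA-MB-231 markers VIM, CD44, AXL, MSN, CAV1 and FN1 were present in every library at 101 CPM or more, and 4 of the 6 were higher in BCSC. The 6 luminal markers summed to 49.7 to 56.7 CPM in BCSC and 58.5 to 81.5 in non-BCSC, 1 of the 5 tested was lower in BCSC, and KRT19 was at 0 in 5 libraries. The 6 blood, endothelial and stromal markers with an annotation summed to 7.43 to 10.9 CPM and 27.8 to 38.2 CPM, with 1 of 5 tested higher, 2 lower, and CD68, CD3E, VWF and HBB at 0 in at least 1 library. Olfactory receptor genes, which epithelial lines hardly express, took 39.5 to 151 counts per 1000000 of the library total in BCSC and 538 to 1230 in non-BCSC. The part of these markers and of depth in the results was not tested. The floors cover counting error only, and in bulk RNA fewer cells of a type and less RNA per cell cannot be told apart.

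**Figure D1:**
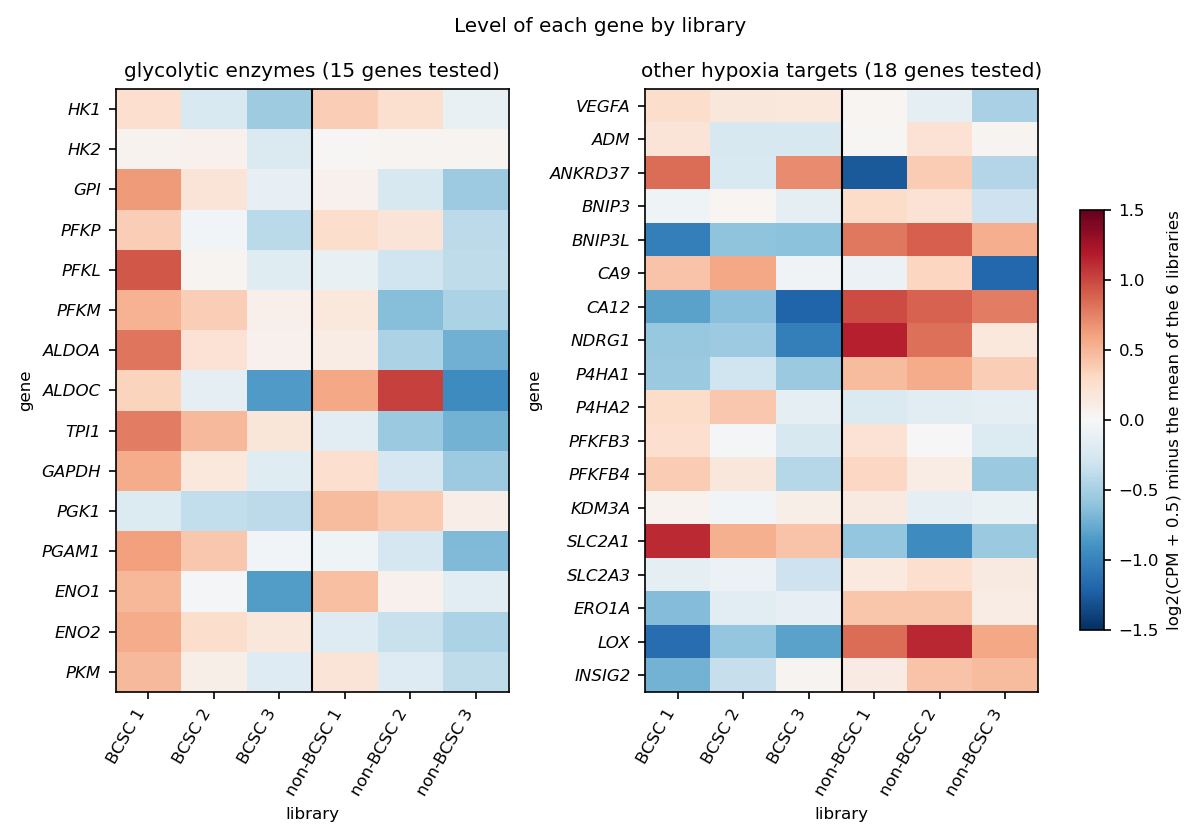
Level of the 33 tested genes in each of the 6 libraries, as log2(CPM + 0.5) minus the gene's mean over the libraries (colour), with genes in rows, libraries in columns and a line between BCSC and non-BCSC. Most glycolytic enzymes are highest in replicate 1 of each group, while LOX, BNIP3L, NDRG1, CA12 and P4HA1 are lower in every BCSC library and SLC2A1 is higher in every BCSC library.

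The glucose transporters went in opposite directions. SLC2A1 (GLUT1), which carries basal glucose uptake, had 292, 193 and 179.7 CPM in the BCSC libraries, against 89.5, 69.1 and 90.8 CPM in non-BCSC. Every BCSC library stood above every non-BCSC library (log2 fold change 1.41 ± 0.19 SE, adjusted p = 0.00138 by edgeR). The gene lies at chr1:43391024-43424564 on the minus strand of GRCh37. SLC2A3 (GLUT3), a transporter of higher glucose affinity, had 94, 97.4 and 83.3 CPM in the BCSC libraries, against 115, 123 and 114 CPM in non-BCSC. Its groups did not overlap either, and SLC2A3 fell (log2 fold change -0.36 ± 0.11 SE, adjusted p = 0.0413 by edgeR), although this call was lost in each of the 6 fits that left out 1 library, with adjusted p of 0.0875 to 0.171. Over all genes tested the groups did not overlap for 52.1%, with BCSC higher for 24.2% and lower for 27.9%, so separate groups are common in these data.

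Hexokinases, which trap glucose in the cell as its phosphate, did not pass the uncorrected test. HK1 had 345, 246 and 200.5 CPM in the BCSC libraries, against 374, 343 and 268 CPM in non-BCSC (log2 fold change -0.32 ± 0.19 SE, edgeR adjusted p = 0.238). HK2, the isoform that tumours often induce, was nearly level over the libraries at 57.6, 58.1 and 48 CPM in the BCSC libraries, against 56.5, 57.4 and 57.3 CPM in non-BCSC (log2 fold change -0.07 ± 0.14 SE, edgeR adjusted p = 0.753). With GC content and length corrected on abundant genes (described with GC content further on) both were called lower, HK1 at -1.09 (adjusted p = 6.42e-05) and HK2 at -0.63 (adjusted p = 0.00605). HK1 was called lower in 6 of its 15 alternatives, among them protein-coding transcripts only (-0.85, adjusted p = 0.00921). GPI, the isomerase of the next step, had 795, 585 and 469 CPM in the BCSC libraries, against 534, 431 and 349 CPM in non-BCSC, with groups that overlapped (adjusted p = 0.0883 in edgeR).

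Of the phosphofructokinases, which catalyse the committed step, none passed in the uncorrected test. PFKP was the most counted at 200.3, 151 and 117 CPM in the BCSC libraries, against 186, 177 and 118 CPM in non-BCSC, and its fold change was -0.04 ± 0.21 (log2, SE). The PFKL level ran from 21.5 to 47.1 CPM in BCSC and from 18.6 to 22.5 CPM in non-BCSC, and that of PFKM from 50 to 68.5 and from 30.3 to 52.9. Their log2 fold changes were both 0.62, with adjusted p of 0.14 and 0.0643 in edgeR, and PFKM overlaps SENP1, which had more counts, on the other strand. PFKFB3 and PFKFB4 make the activator of phosphofructokinase and are HIF targets, and PFKFB3 was 198, 163 and 141 CPM in the BCSC libraries, against 193, 167 and 144 CPM in non-BCSC (log2 fold change 0.00 ± 0.15 SE). PFKFB4 was lower in level, at 17.7 to 31.5 CPM in BCSC and 16.2 to 30 in non-BCSC, and did not pass (adjusted p = 0.859 in edgeR). With the correction on abundant genes PFKP was lower at -0.92 (adjusted p = 0.000495), PFKL changed sign to -0.68 (adjusted p = 0.0237), and PFKFB3 and PFKFB4 were lower at -0.86 (adjusted p = 5.41e-05) and -0.75 (adjusted p = 0.0249), as log2 fold changes. All 4 were also called lower with the correction fitted on all genes, while PFKM was called in neither.

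All 4 rises were in the steps that follow. ALDOA, the main aldolase, had 938, 627 and 562 CPM in the BCSC libraries, against 584, 386 and 327 CPM in non-BCSC. Its groups overlapped at the edge, and ALDOA rose by a small margin (log2 fold change 0.71 ± 0.24 SE, adjusted p = 0.0454 by edgeR) that only the fits without BCSC replicate 3 or non-BCSC replicate 1 kept among the 6 fits without 1 library. An overlapping gene on the same strand, ENSG00000285043, had 6.99% as many counts as ALDOA. TPI1, which interconverts the 2 triose phosphates that aldolase makes, had 603, 494 and 401 CPM in the BCSC libraries, against 314, 239 and 215 CPM in non-BCSC. All BCSC libraries were above all non-BCSC libraries and TPI1 rose 1.95-fold (log2 fold change 0.96 ± 0.18 SE, adjusted p = 0.00472 by edgeR), a call kept in all 6 of those fits. ALDOC, the brain aldolase, was sparse, with 24, 11 and 4 counts in the BCSC libraries, against 18, 25 and 2 counts in non-BCSC. It also overlaps RSKR, so its counts are uncertain.

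GAPDH, which oxidises the triose phosphate, and the gene the study used as its reference in quantitative PCR, had 4342, 3307 and 2617 CPM in the BCSC libraries, against 3536, 2490.1 and 2027 CPM in non-BCSC. The BCSC mean was 1.27 times that of non-BCSC, the groups overlapped, and the difference did not pass (log2 fold change 0.35 ± 0.22 SE, adjusted p = 0.245 by edgeR). PGK1, the next enzyme, was the 1 glycolytic enzyme that fell, with 388, 345 and 339 CPM in the BCSC libraries, against 621, 588 and 480.4 CPM in non-BCSC. Its groups did not overlap (log2 fold change -0.66 ± 0.12 SE, adjusted p = 0.00435 by edgeR), and the call held in all 6 fits without 1 library. ATP7A, which overlaps PGK1 on the same strand, had 10.1% as many counts. PGAM1 rose, from 175 to 266 CPM in non-BCSC to 269 to 426 CPM in BCSC (log2 fold change 0.66 ± 0.19 SE, adjusted p = 0.028 by edgeR), and its call was kept in 2 of those fits, without BCSC replicate 3 and without non-BCSC replicate 1. In the uncorrected test TPI1 and PGK1 thus moved in opposite directions. With GC content and length corrected on all genes neither passed, at 0.16 (edgeR adjusted p = 0.525) and 0.07 (adjusted p = 0.848). Corrected on abundant genes they stayed opposite, at 0.30 (adjusted p = 0.00803) and -0.73 (adjusted p = 0.000875).

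Of the enolases 1 passed. ENO1, the common form, had 1276, 891 and 504 CPM in the BCSC libraries, against 1228, 940.5 and 808 CPM in non-BCSC, with groups that overlapped, and did not pass (adjusted p = 0.724 in edgeR). ENO2, the neuronal form that hypoxia also induces, had 76.5, 62.4 and 58.4 CPM in the BCSC libraries, against 45.4, 41.1 and 37.2 CPM in non-BCSC. ENO2 rose 1.6-fold (log2 fold change 0.67 ± 0.16 SE, adjusted p = 0.0142 by edgeR), lost only without BCSC replicate 1 among the fits without 1 library. PKM, which makes pyruvate, had 2189, 1657 and 1364 CPM in the BCSC libraries, against 1788, 1372 and 1202 CPM in non-BCSC, with groups that overlapped (adjusted p = 0.318 in edgeR).

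Per length of transcript, in TPM (counts divided by transcript length and scaled to 1000000 per library, mean ± SD, n = 3), GAPDH was the highest of the enzymes at 6737 ± 1380.5 in BCSC against 5362 ± 1344 in non-BCSC. PKM followed at 1940.4 ± 415 in BCSC against 1676 ± 269 in non-BCSC, then ENO1 at 1304 ± 521 in BCSC against 1428 ± 227 in non-BCSC and ALDOA at 1184 ± 381 in BCSC against 742 ± 205 in non-BCSC. The mean ± SD ranges of PKM and ENO1 overlapped in both groups, while that of GAPDH stood clear of them. The TPM of SLC2A1 was 224 ± 47.7 in BCSC against 103 ± 14.6 in non-BCSC and that of SLC2A3 68.3 ± 3.87 in BCSC against 100.1 ± 11.6 in non-BCSC, so SLC2A1 had the higher TPM of the pair in BCSC, while in non-BCSC the mean ± SD ranges overlapped.

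**Figure D2:**
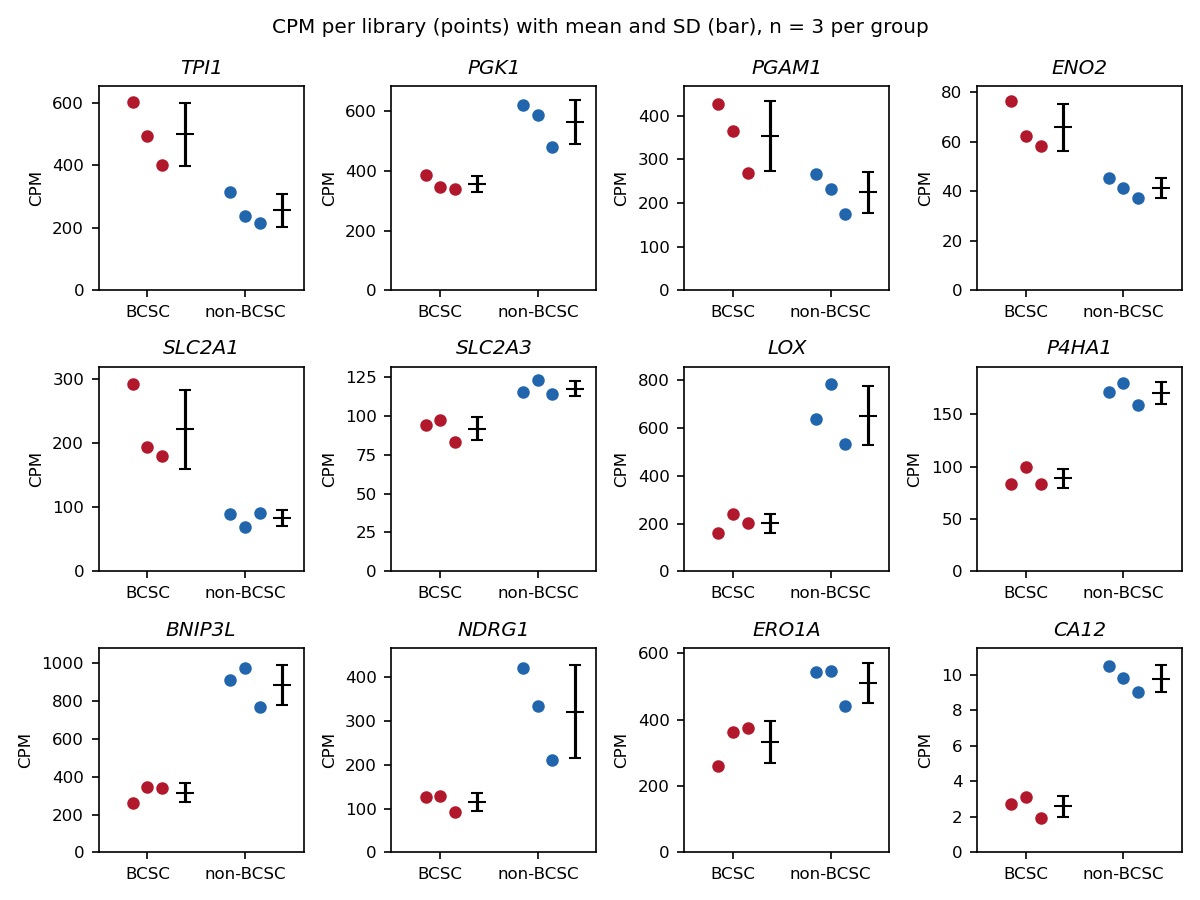
CPM (TMM library size, linear axis from 0) of 12 members in each library, with BCSC and non-BCSC libraries as points and mean ± SD as bars (n = 3). The 12 were picked from the members that passed the test, without ALDOA, whose groups overlap. The groups do not overlap in any of the 12, and PGAM1 is the closest to overlap, at 269 CPM for its lowest BCSC library and 266 for its highest non-BCSC library. Of all 33 members tested, 5 were higher and 9 lower in BCSC without overlap, beside 24.2% and 27.9% of all genes tested.

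The other targets that fell came from several branches of the hypoxia response. In collagen processing, LOX had 161, 238 and 204 CPM in the BCSC libraries, against 637, 782 and 534 CPM in non-BCSC. The highest BCSC library, at 238 CPM, lay far below the lowest non-BCSC library, at 534 CPM, and LOX fell 3.24-fold (log2 fold change -1.69 ± 0.17 SE, adjusted p = 0.000391 by edgeR). P4HA1, the catalytic subunit of prolyl hydroxylase for collagen, had 83.5, 99.5 and 83.3 CPM in the BCSC libraries, against 171, 180 and 159 CPM in non-BCSC and fell 1.91-fold (log2 fold change -0.94 ± 0.12 SE, adjusted p = 0.000983 by edgeR). Its paralogue P4HA2 had 67.3, 74.2 and 50.1 CPM in the BCSC libraries, against 47.7, 50 and 50.2 CPM in non-BCSC and did not pass (adjusted p = 0.119 in edgeR), and P4HA2 shares its locus with PDLIM4 on the other strand. With GC content and length corrected on all genes P4HA2 was called higher, at 0.94 (adjusted p = 0.00966 in edgeR). LOX (GRCh37 chr5:121398890-121414108, minus strand) and P4HA1 (chr10:74766975-74856732, minus strand) kept their calls in all 6 fits without 1 library, and SRFBP1, on the other strand of LOX, had 10.8% as many counts as LOX.

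In mitophagy, BNIP3L (NIX), a receptor on the outer mitochondrial membrane, had 259, 347 and 343 CPM in the BCSC libraries, against 912, 978 and 769.7 CPM in non-BCSC. In non-BCSC it had the highest TPM of the other targets, 673 ± 65.1 (SD, n = 3), and BNIP3L fell 2.81-fold (log2 fold change -1.49 ± 0.14 SE, adjusted p = 0.000248 by edgeR). BNIP3, its close relative and a classical HIF target, had 139, 148 and 131 CPM in the BCSC libraries, against 175, 169 and 117 CPM in non-BCSC and did not pass (log2 fold change -0.14 ± 0.15 SE, adjusted p = 0.513 by edgeR). With GC content and length corrected on all genes BNIP3 was called higher, at 1.12 (adjusted p = 0.0104 by edgeR). The annotation holds 44 BNIP3 pseudogenes, whose counts were 1.57% of those of BNIP3 in BCSC and 8.94% in non-BCSC, so its count is uncertain. NDRG1, a stress gene that hypoxia raises strongly, had 126, 128 and 92 CPM in the BCSC libraries, against 420, 333 and 209.5 CPM in non-BCSC. NDRG1 fell 2.78-fold (log2 fold change -1.48 ± 0.23 SE, adjusted p = 0.00251 by edgeR), and its non-BCSC libraries spread from 210 to 420 CPM.

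For pH balance, CA12 and CA9, the carbonic anhydrases at the cell surface, were sparse. CA12 had 55, 48 and 32 counts in the BCSC libraries, against 127, 111 and 94 counts in non-BCSC, or 2.71, 3.13 and 1.94 CPM in the BCSC libraries, against 10.5, 9.81 and 9.01 CPM in non-BCSC, and fell 3.76-fold (log2 fold change -1.91 ± 0.41 SE, adjusted p = 0.00943 by edgeR). CA9, a standard marker of hypoxia, had 203, 171 and 116 counts in the BCSC libraries, against 83, 105 and 31 counts in non-BCSC. Its groups overlapped in CPM, it did not pass (adjusted p = 0.379 in edgeR), and it overlaps ARHGEF39, which had more counts than CA9 over the 6 libraries.

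In the endoplasmic reticulum, ERO1A, an oxidase for disulphide bonds, had 260.2, 363 and 375 CPM in the BCSC libraries, against 544, 546 and 441 CPM in non-BCSC. ERO1A fell 1.53-fold (log2 fold change -0.62 ± 0.15 SE, adjusted p = 0.0149 by edgeR), a call lost without non-BCSC replicate 1 or 2. INSIG2, which holds back sterol synthesis, had 30.3, 39.1 and 51.5 CPM in the BCSC libraries, against 54.4, 67.6 and 69.5 CPM in non-BCSC and fell (log2 fold change -0.66 ± 0.21 SE, adjusted p = 0.0378 by edgeR), with the call kept in 1 of the 6 fits without 1 library.

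The secreted factors and regulators gave no call in the uncorrected test. VEGFA, the main angiogenic factor, had 296, 278 and 274 CPM in the BCSC libraries, against 252, 223 and 176 CPM in non-BCSC. Its BCSC libraries were all above its non-BCSC libraries, yet the adjusted p was 0.0543 in edgeR (log2 fold change 0.38 ± 0.13 SE). ADM, a vasodilator peptide, was 45.2, 33.4 and 33.4 CPM in the BCSC libraries, against 39.9, 45.9 and 40.4 CPM in non-BCSC and the histone demethylase KDM3A was 97.8, 90.9 and 100.1 CPM in the BCSC libraries, against 103, 85.1 and 87.9 CPM in non-BCSC, with adjusted p of 0.508 and 0.715. With the correction on abundant genes VEGFA changed sign to -0.33 (adjusted p = 0.0259) and ADM was lower at -0.90 (adjusted p = 0.0056), and with it fitted on all genes ADM was at -1.05 (adjusted p = 0.00331) and KDM3A at 0.59 (adjusted p = 0.0376). ANKRD37 had 33, 8 and 24 counts in the BCSC libraries, against 0, 12 and 4 counts in non-BCSC, too few for its log2 fold change of 1.31 ± 1.30 (SE) to be read, and its locus is shared with UFSP2. ANGPTL4 had 0, 2 and 13 counts in the BCSC libraries, against 0, 0 and 0 counts in non-BCSC and MIF 0, 0 and 8 counts in the BCSC libraries, against 7, 8 and 0 counts in non-BCSC, so for both no difference was detectable at this depth. MIF is a short gene that overlaps its antisense RNA, and strand use in counting is not stated.

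**Figure D3:**
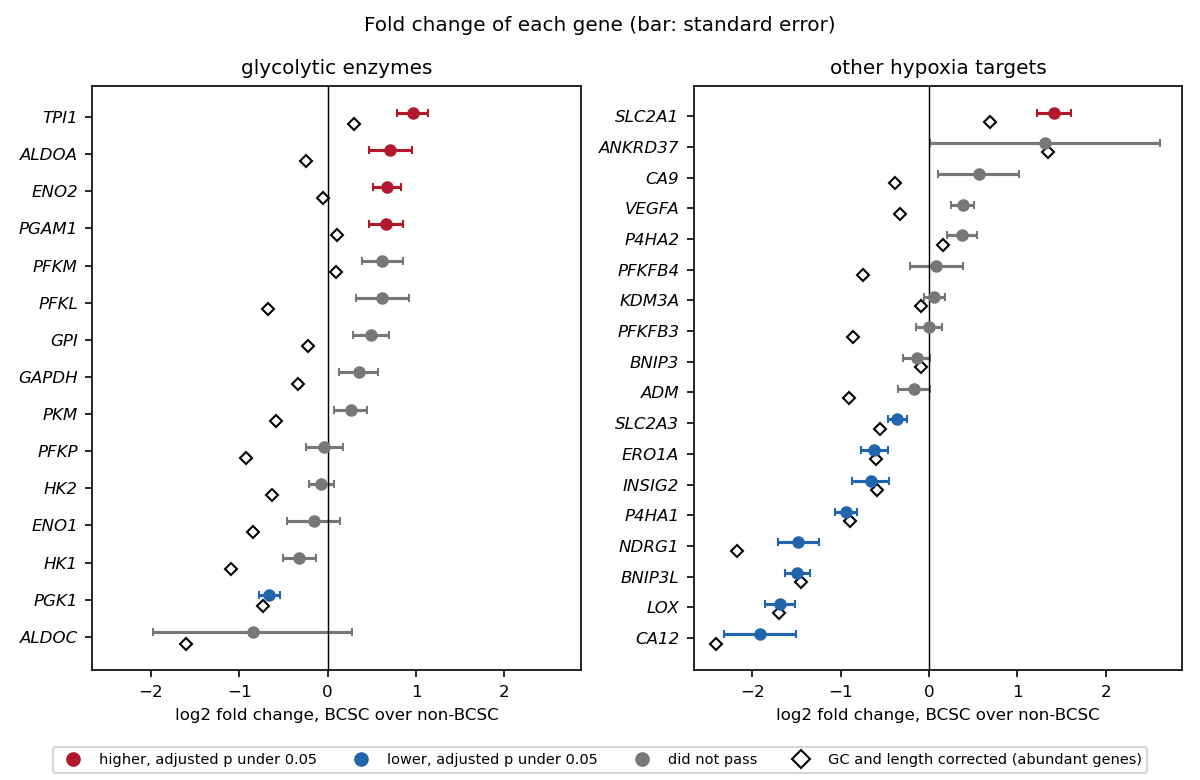
Log2 fold change of BCSC over non-BCSC for the tested members, ordered within each list, with the standard error as bars and colour for an adjusted p under 0.05 (red higher, blue lower, grey neither), and as open diamonds the value after GC content and length were corrected on abundant genes. The glycolytic enzymes run from -0.85 to 0.96 and most of their diamonds lie to the left of 0, while the 4 largest falls among the other targets, from -1.48 to -1.91, are as low or lower after the correction apart from BNIP3L at -1.45.

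As lists, the glycolytic enzymes had a median log2 fold change of 0.35 over 15 tested genes and the other targets one of -0.16 over 18, beside -0.05 over all genes tested. The median over the genes averaging at least 500 counts was 0.18. At the study's own fold of more than 2 together with an adjusted p under 0.05, none of the glycolytic enzymes passed, and among the other targets 1 was higher and 4 were lower, beside 8.85% and 11.3% of all genes tested. As a share of the library the glycolytic enzymes together made up 1.12%, 0.855% and 0.693% in BCSC, against 0.95%, 0.73% and 0.644% in non-BCSC, which overlap. The other targets made up 0.21%, 0.225% and 0.214% in BCSC, against 0.376%, 0.384% and 0.319% in non-BCSC, which do not.

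The spread of the glycolytic enzymes within a group followed the library. In BCSC replicate 1 was the highest of its group in 14 of 15 enzymes, with a median of 1.27 times the group mean, and replicate 3 was at 0.765 times. In non-BCSC replicate 1 was the highest in 13 of 15, at 1.19 times, with replicate 3 at 0.816 times. For the other targets the replicates numbered 1 were the highest in 6 and 7 of 18. BCSC replicate 1 is also the deepest library, and the part of depth in this was not tested.

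GC content moved with the fold changes. Over the 5661 abundant genes, those averaging at least 500 counts, the rank correlation (Spearman) of log2 fold change and GC content was 0.47, as a description across genes, which share the same 6 libraries. Of these genes 1699 were higher in BCSC, a larger share than the 15.3% of all genes tested, and 676, or 11.9%, were lower. In these genes the median log2 fold change was -0.01 at a GC content of 36% to 40%, 0.03 at 40% to 44%, 0.71 at 52% to 56% and 1.01 at 56% to 60%. The glycolytic enzymes had a median GC content of 54.6% and the other targets of 45.8%. Of the 13 glycolytic enzymes that were abundant in this sense, 6 lay within the middle 50% of the genes of like GC content (TPI1, ALDOA, PGAM1, ENO2, GPI and PFKM), 7 lay below it and none above. Of the 14 such other targets, 9 lay below that range, 4 within it, and SLC2A1 alone above.

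**Figure D4:**
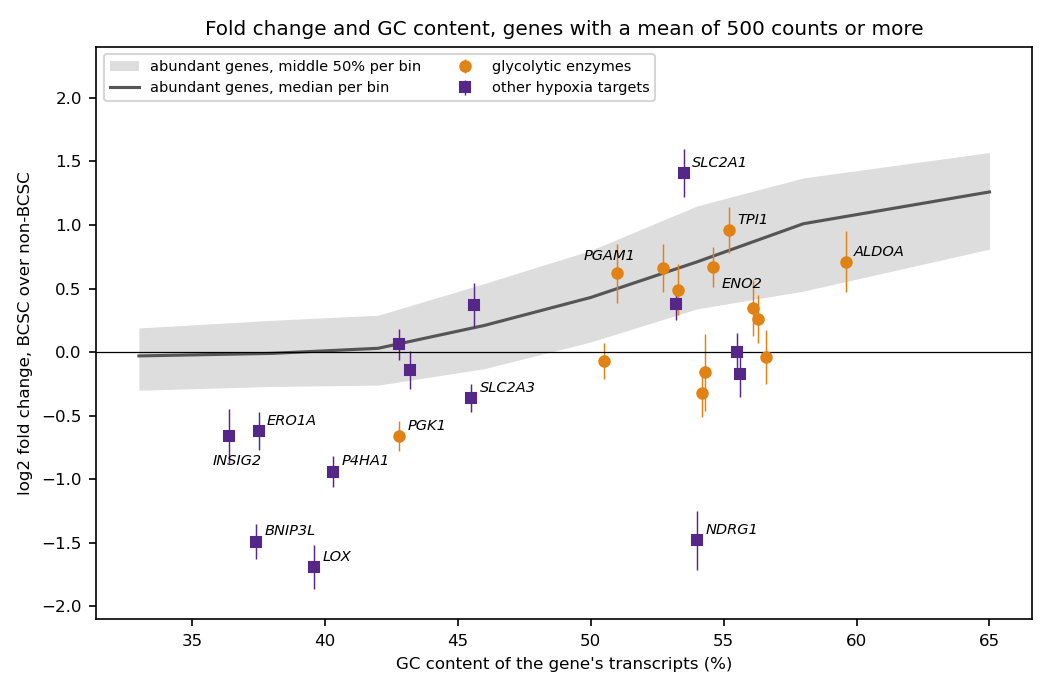
Log2 fold change of BCSC over non-BCSC against GC content (%) for the 27 members averaging at least 500 counts, with standard error bars, over the median (line) and the middle 50% (band) of the 5661 abundant genes in bins of GC content. TPI1, PGAM1, ENO2 and ALDOA lie within the band that rises with GC content, whereas LOX, BNIP3L, P4HA1, PGK1 and NDRG1 lie below it and SLC2A1 lies above it.

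With GC content and length corrected per library on those abundant genes, an alternative chosen after the data were seen, 1 glycolytic enzyme was higher and 9 were lower, against 4 and 1 without it. The 1 was TPI1, at a log2 fold change of 0.30 (adjusted p = 0.00803). ALDOA and ENO2 changed sign, to -0.24 (adjusted p = 0.0459) and -0.05 (adjusted p = 0.771), so the direction of the glycolytic list depends on this choice. The median of that list went from 0.35 to -0.58, where that of all genes tested went from -0.05 to -0.27 and that of the abundant genes from 0.18 to 0.0. The other targets went from 1 higher and 8 lower to 1 higher and 12 lower. In this fit 8.06% of all genes tested were higher and 19.1% lower, and of the abundant genes alone 20.3% and 22.2%. As log2 fold changes, SLC2A1 was at 0.69 (adjusted p = 0.00658), LOX -1.70 (adjusted p = 3.25e-05), BNIP3L -1.45 (adjusted p = 9.49e-06), NDRG1 -2.17 (adjusted p = 1.38e-05), CA12 -2.41 (adjusted p = 0.00218) and P4HA1 -0.89 (adjusted p = 0.000148). Fitted instead on all tested genes, sparse ones included, the correction left LOX at -0.83 (adjusted p = 0.0192), NDRG1 at -2.08 (adjusted p = 0.000247), CA12 at -1.87 (adjusted p = 0.00428) and SLC2A1 at 0.85 (adjusted p = 0.00408). In that fit BNIP3L was at 0.00 (adjusted p = 0.996), PGK1 at 0.07 (adjusted p = 0.848) and P4HA1 at 0.50 (adjusted p = 0.152), so their falls were lost. The rise of TPI1 was lost as well, at 0.16 (adjusted p = 0.525). INSIG2 passed in the opposite direction at 1.20 (adjusted p = 0.00127), and ERO1A and SLC2A3 were at 0.40 (adjusted p = 0.185) and 0.26 (adjusted p = 0.349). That fit called 27.0% of all genes tested higher and 9.75% lower, and 63.8% and 4.29% of the abundant genes. SLC2A1, LOX, NDRG1 and CA12 were the 4 members that passed the test in the same direction in all 15 alternatives.

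Other genes of both pathways were examined from lists of 19 further glycolysis genes and 30 further hypoxia targets. Of the 10 further glycolysis genes tested 1 rose and none fell, beside 15.3% and 14.6% of all genes tested. The other 9 genes were too sparse to test. The 1 was G6PC3, the ubiquitous glucose-6-phosphatase, at 18.5, 21.7 and 15.1 CPM in the BCSC libraries, against 8.5, 4.77 and 5.08 CPM in non-BCSC (log2 fold change 1.59 ± 0.33 SE, adjusted p = 0.00849 by edgeR). With the GC content and length correction G6PC3 did not pass, at 0.43 (edgeR adjusted p = 0.291) on all genes and 0.71 (adjusted p = 0.0823) on abundant genes. With protein-coding transcripts only it was at 0.83 (adjusted p = 0.194). Of the 30 further hypoxia targets, all tested, 4 rose and 8 fell, beside 15.3% and 14.6% of all genes tested. The largest fall was in EGLN3, an oxygen-sensing prolyl hydroxylase that HIF itself induces, with 206, 182 and 192 CPM in the BCSC libraries, against 711, 759 and 543 CPM in non-BCSC. The groups did not overlap (log2 fold change -1.80 ± 0.13 SE, adjusted p = 7.68e-05 by edgeR), and all 6 fits without 1 library kept the call. EGLN1, its relative and the main HIF hydroxylase, also fell (log2 fold change -0.62 ± 0.11 SE, adjusted p = 0.00439 by edgeR).

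Around glycogen and collagen, PPP1R3C, which targets a phosphatase to glycogen, had 11.3, 14.8 and 11.2 CPM in the BCSC libraries, against 33.8, 41.8 and 26.3 CPM in non-BCSC and fell (log2 fold change -1.45 ± 0.25 SE, adjusted p = 0.00374 by edgeR). The glycogen branching enzyme GBE1 and the collagen lysyl hydroxylase PLOD2 also fell, by log2 fold changes of -0.86 ± 0.12 and -0.67 ± 0.10 (SE), with edgeR adjusted p of 0.00139 and 0.00184. PLOD2 did not pass with protein-coding transcripts only (adjusted p = 0.116 by edgeR). STC1, a secreted glycoprotein, PDK1, which keeps pyruvate out of mitochondria, and KDM4C, a histone demethylase, were the others that fell. The call of KDM4C was lost in each of the 6 fits without 1 library. With the GC content and length correction fitted on all genes, PLOD2 was called higher at 0.65 (adjusted p = 0.0399 by edgeR). EGLN1 (0.16), PPP1R3C (-0.18), GBE1 (0.46), STC1 (-0.17), PDK1 (0.0) and KDM4C (0.03) did not pass in that fit (log2 fold changes). EGLN3 kept its fall there at -1.25, and all 8 stayed lower with the correction on abundant genes. LDHA, which turns pyruvate into lactate, rose, with 94.5 to 104 CPM in BCSC and 55.9 to 69.2 in non-BCSC (log2 fold change 0.63 ± 0.13 SE, adjusted p = 0.0078 by edgeR). LOXL2, a relative of LOX, went the other way from LOX, with 156, 97 and 78.2 CPM in the BCSC libraries, against 72.4, 45 and 31.4 CPM in non-BCSC (log2 fold change 1.15 ± 0.32 SE, adjusted p = 0.0243 by edgeR). The call of LOXL2 was kept in 3 of the 6 fits without 1 library. With the correction LOXL2 did not pass, at 0.10 (edgeR adjusted p = 0.783) on all genes and 0.20 (adjusted p = 0.418) on abundant genes. It also missed with protein-coding transcripts only (adjusted p = 0.0901) and with background removed (adjusted p = 0.0512). LDHA stayed higher in both corrections. STC2 also rose, with its call kept in 2 of the 6 fits without 1 library, and was at -0.01 with the correction on abundant genes.

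Single transcripts were less precise, since reads are divided among isoforms by estimation. The members had 489 transcripts in the table, 132 passed the filter, and 2 were higher and 2 lower in BCSC at an adjusted p under 0.05, beside 0.606% and 0.204% (0.81% in all) of the 46176 transcripts tested. Past 2-fold as well, the shares of all transcripts were 0.593% and 0.191%. At an unadjusted p under 0.05 there were 27. The 2 lower were the transcripts that carry nearly all counts of their genes, LOX-201 (log2 fold change -1.63 ± 0.21 SE, adjusted p = 0.0467 by edgeR) and BNIP3L-201 (log2 fold change -1.42 ± 0.15 SE, adjusted p = 0.0429 by edgeR). Of the 2 higher, ALDOA-201 had 3356, 1156 and 2770 counts in the BCSC libraries, against 0, 0 and 0 counts in non-BCSC. Its adjusted p was 0.0429 by edgeR, and no fold is given against an estimated count of 0. In the same non-BCSC libraries ALDOA-219 took 73.7%, 16.1% and 79.1% of the ALDOA counts, so how reads were divided among isoforms differed between libraries of 1 group. The other was PKM-211, a retained-intron transcript, with 3683, 4007 and 3892 counts in the BCSC libraries, against 559, 316 and 602 counts in non-BCSC (log2 fold change 2.44 ± 0.31 SE, adjusted p = 0.0467 by edgeR). None of the 4 calls was kept in any fit without 1 library. The most counted SLC2A1 transcript, SLC2A1-203, had 3963, 2529 and 2512 counts in the BCSC libraries, against 198, 533 and 322 counts in non-BCSC and just missed the threshold (log2 fold change 2.53 ± 0.43 SE, adjusted p = 0.0646 by edgeR).

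PKM makes 2 proteins by choice between mutually exclusive exons, M1 of adult muscle and brain and M2 of growing and tumour cells, so the exons are shown to let a reader see how alike they are. They lie on the minus strand of chromosome 15 in GRCh37, M1 at chr15:72495363-72495529 and M2 at chr15:72494795-72494961, each of 167 bases, and are printed 5′ to 3′ from the GENCODE transcripts with the 62 bases that differ in capitals.
PKM exon M1: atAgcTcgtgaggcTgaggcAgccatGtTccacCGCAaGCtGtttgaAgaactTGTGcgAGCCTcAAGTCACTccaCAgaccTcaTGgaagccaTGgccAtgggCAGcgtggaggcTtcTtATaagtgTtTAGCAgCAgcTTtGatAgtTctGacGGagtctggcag
PKM exon M2: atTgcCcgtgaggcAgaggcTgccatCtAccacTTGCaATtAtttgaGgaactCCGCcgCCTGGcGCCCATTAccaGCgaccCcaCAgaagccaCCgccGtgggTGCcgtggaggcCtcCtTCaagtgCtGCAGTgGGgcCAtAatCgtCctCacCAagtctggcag
The exons are 62.9% identical base by base. Of the PKM counts in transcripts with either exon, those with M1 made up 10.3%, 8.34% and 11.8% in BCSC, against 6.41%, 1.68% and 1.96% in non-BCSC. The M2 form was thus the main one in all 6 libraries, and the BCSC shares were all above the non-BCSC shares (10.1% ± 1.74 against 3.35% ± 2.65, SD, n = 3). By an exact permutation test (two-sided) p was 0.1, which is the lowest value possible with 3 libraries against 3. Transcripts with neither exon held 10.5%, 19.2% and 21.3% of PKM counts in BCSC, against 4.15%, 3.23% and 7.15% in non-BCSC.

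Retained-intron transcripts held 32.8%, 20.9% and 16.2% of all member counts in BCSC, against 13.6%, 12.5% and 11.7% in non-BCSC. Much of this was GAPDH-208, a retained-intron transcript whose share of the GAPDH counts was 88%, 43.9% and 31.2% in the BCSC libraries, against 28.6%, 32.4% and 30.6% in non-BCSC. BCSC replicate 1 stood apart there, and its share of the main coding transcript GAPDH-201 was 10.3% where the other 5 libraries had 48.8% to 58.8%. For SLC2A1 the coding SLC2A1-203 made up 66.9%, 85.4% and 84.6% in the BCSC libraries, against 18.2%, 68.2% and 34% in non-BCSC. The retained-intron SLC2A1-215 held 60.5% and 50.9% in non-BCSC replicates 1 and 3. With the protein-coding transcripts only, SLC2A1 remained higher (adjusted p = 0.012 in edgeR), as did TPI1 (adjusted p = 0.0202), while ALDOA at 0.40, PGAM1 at 0.51, ENO2 at 0.52, SLC2A3 at -0.32 and INSIG2 at -0.77 (log2 fold changes) kept their signs and did not pass.

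**Figure D5:**
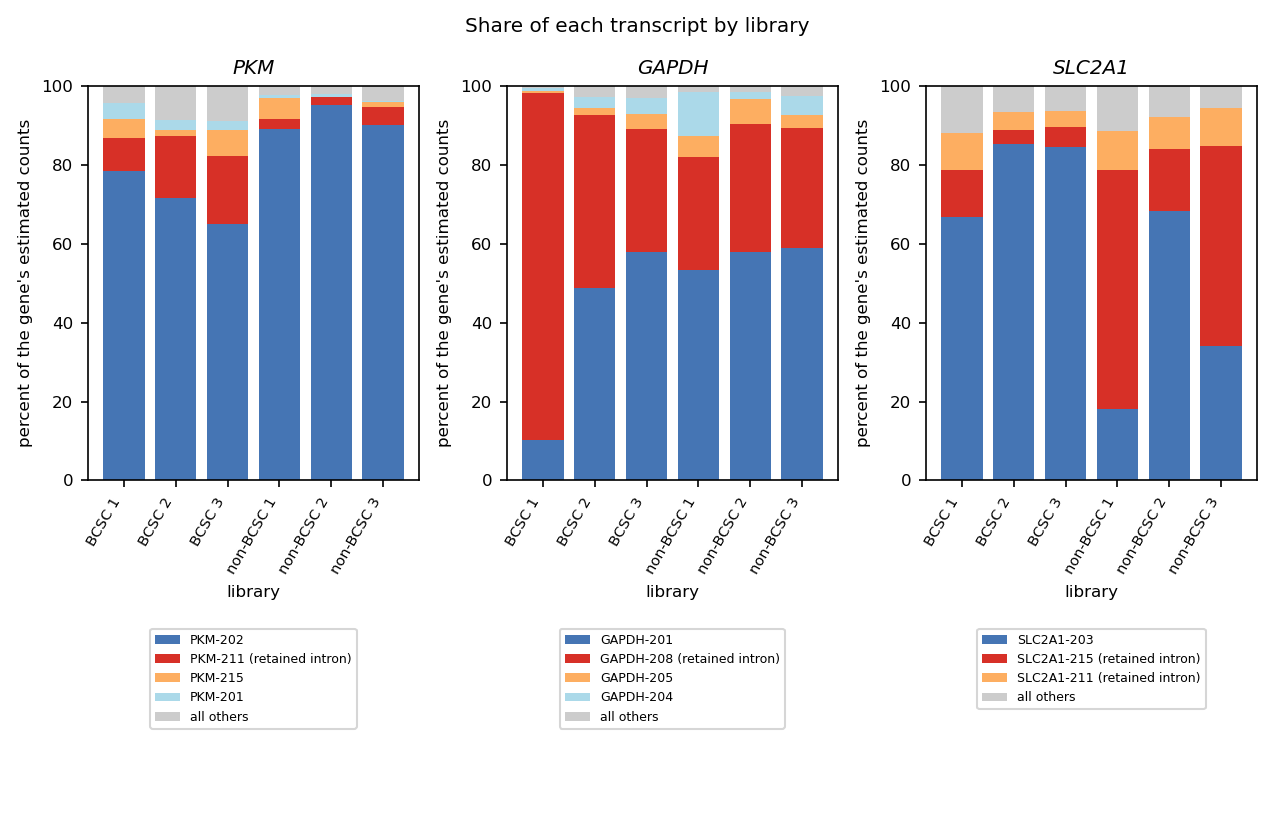
Percent of each gene's estimated counts assigned to its leading transcripts in each library, for PKM, GAPDH and SLC2A1, with colours for transcripts and grey for all others. PKM-211 takes more in every BCSC library than in any non-BCSC library, GAPDH-208 takes 88.0% in BCSC replicate 1, and SLC2A1-203 ranges from 18.2% to 68.2% among the non-BCSC libraries.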

How the data were processed

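Long non-coding RNA sequencing of 6 libraries (3 BCSC, 3 non-BCSC) was analysed. The values deposited are estimated counts per transcript in whole numbers, not normalized, with replicates kept apart. Per the labels, cDNA was made with random primers and the dUTP-marked second strand was removed. The submitters' processing notes name HISAT2, featureCounts, DESeq2 and hg38, whereas the study's methods name hg19, and the step that assigned reads to transcripts is not given in the sources used here. The deposited table holds no coordinates. Its 252618 transcripts were matched by identifier to GENCODE 44 on GRCh37 (249787 matched, 98.9%, with 99.73% of counts), 4 assembler-made identifiers were left out, and counts were summed per gene.

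Genes and transcripts were tested with edgeR 4.0.16 (R 4.3.3, TMM, filterByExpr, robust quasi-likelihood, group as the only term) and Benjamini-Hochberg adjustment over all features tested. Members and lists were chosen with earlier results of these data known. The rule for names was all 35 members, further genes with an adjusted p under 0.05, a log2 fold change beyond 1 and a mean of 50 counts, and member transcripts past the threshold or with the most counts of a gene. Genes named outside it (EGLN1, GBE1, PLOD2, STC1, PDK1, KDM4C, LDHA, STC2, GAPDH-201, SLC2A1-215) were chosen after their values were seen. 1 further gene that meets the rule is not reported here by name. The scripts were tested on simulated data. Alternatives were RLE size factors, DESeq2, other count filters, a replicate block, leaving out each library, GC content and length correction (loess, span 0.3), protein-coding transcripts only, and removal of a background set by 406 olfactory receptor genes. No pair of libraries of a group agreed within sampling noise (lowest chi-square per degree of freedom 15.2).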

Additional observations from a re-analysis of the deposited data

How the results depend on the processing

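Of the member fold changes refitted under the alternatives, 379 were neither turned in sign nor moved across the threshold, 37 lost the threshold, 31 gained it and 44 changed sign.

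Numbers of glycolytic enzymes higher in BCSC (4) became 7 with no filter, 0 with the GC content and length correction, 1 with that correction fitted on abundant genes, 1 with protein-coding transcripts only, 2 with background removed, 0 beyond 2-fold, and 1 to 6 without 1 library. Those lower (1) became 6 with the correction, 9 with it fitted on abundant genes, 2 with coding transcripts only, 2 with background removed, 0 beyond 2-fold and 1 to 2 without 1 library. Other targets higher (1) became 2 with no filter, 5 with the correction and 1 to 2 without 1 library. Those lower (8) became 6 with the correction, 12 with it fitted on abundant genes, 6 with coding transcripts only, 4 beyond 2-fold and 5 to 7 without 1 library. The 6 with the correction were LOX, NDRG1 and CA12, and also ADM, PFKFB3 and PFKFB4, which were not called without it. The 5 higher with it were SLC2A1, INSIG2, BNIP3, P4HA2 and KDM3A, and of these only SLC2A1 was called higher without it. Further pathway genes higher (5) became 8 with no filter, 10 and 1 with the correction over all and over abundant genes, 1 with coding transcripts only, 2 with background removed, 3 beyond 2-fold and 2 to 6 without 1 library, and those lower (8) became 16 with the correction on abundant genes, 2 beyond 2-fold and 7 to 8 without 1 library. Member transcripts higher (2) became 11 with DESeq2, 1 with the correction and 0 without any 1 library, and those lower (2) became 7 with DESeq2, 5 with at least 10 counts in every library, 4 with the correction and 0 without any 1 library.

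With the replicate block, glycolytic enzymes were 8 higher and 2 lower, other targets higher were 2, and member transcripts were 0 and 0. The deviations of same-numbered libraries from their group means correlated at 0.18, 0.01 and 0.22, and those of the other pairs at -0.2 to 0.05. Replicate 1 was also the highest of its group in 14 of 15 glycolytic enzymes in BCSC and 13 of 15 in non-BCSC. Nothing says whether same-numbered libraries came from 1 culture. The main test took no pairs, and whether the libraries are paired was not settled.

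With the GC content and length correction over all genes the values that changed sign were PFKL -1.17, ALDOA -0.63, PGK1 0.07, ENO2 -0.05, PKM -0.70, BNIP3 1.12, P4HA1 0.50, PFKFB4 -0.77, GAPDH -0.56, CA9 -0.84, SLC2A3 0.26, ERO1A 0.40 and INSIG2 1.20. With the correction fitted on abundant genes, added after seeing the data, they were PFKL -0.68, ALDOA -0.24, GAPDH -0.33, ENO2 -0.05, PKM -0.58, VEGFA -0.33, PFKFB4 -0.75, GPI -0.22, CA9 -0.39 and KDM3A -0.09. The other changes of sign were in values called neither before nor after, GAPDH -0.58, PKM -0.10 and PFKFB4 -0.09 with coding transcripts only, PFKFB4 -0.09 and KDM3A -0.14 with background removed, HK2 0.01 and PFKP 0.03 with no filter, PFKFB4 -0.01 and KDM3A -0.03 with RLE size factors, and PFKFB4 -0.07 and KDM3A -0.08 where every library needed 10 counts. Values that crossed 0 when 1 library was left out were HK2 -0.10 to 0.01, PFKP -0.26 to 0.14, ENO1 -0.52 to 0.12, BNIP3 -0.28 to 0.02, PFKFB3 -0.14 to 0.16 and PFKFB4 -0.12 to 0.32. The cause of these changes was not tested. Depth limits CA12, CA9, ALDOC, ANKRD37, ANGPTL4 and MIF.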
